A study of Mus musculus with 24 samples.

Results

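The genes described here are 34 genes of glucose uptake, glycolysis, lactate handling, the pentose phosphate pathway and the hypoxia-inducible factor (HIF) response. They were chosen by name, by a rule that uses no measured value but was made with earlier results of these data known, and all 34 were among the 43430 gene IDs of the count table. They were measured by RNA-seq in lung macrophages of C57BL/6J mice, isolated by cell sorting, with 4 libraries in each of 6 groups. All cells were alveolar macrophages by their label, sorted as high or low for the surface lectin Siglec F, and came from young animals of 8 to 12 weeks or old animals of more than 18 months. Naive animals gave Siglec F-high cells at both ages (young naive and old naive). Asbestos animals, studied 28 days after asbestos per the series text, gave Siglec F-high and Siglec F-low cells at both ages. The dose and route of asbestos are not given in the sources used here, and with naive animals as the only controls, asbestos and the procedure of giving it cannot be told apart. The labels do not say whether libraries of a group came from separate animals or pools, so the p-values measure the spread between these libraries, which may in part be technical. In such bulk samples fewer cells of a type and less RNA per cell cannot be told apart.

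Glycolysis takes glucose to pyruvate in the cytosol and yields ATP without oxygen, and lactate dehydrogenase turns pyruvate into lactate, which monocarboxylate transporters carry out of the cell. The pentose phosphate pathway branches off at glucose 6-phosphate and provides NADPH and ribose. HIF-1α, the product of Hif1a, is marked for destruction in normal oxygen by the prolyl hydroxylases encoded by Egln1 and Egln3, and when stable it switches on glucose transporters, glycolytic enzymes and the pyruvate dehydrogenase kinase Pdk1. Alveolar macrophages live in high oxygen and little glucose and lean on fatty acids and mitochondria, whereas inflammatory macrophages are known for glycolysis.

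HIF-1 binds a short core sequence, ACGTG or GCGTG, so the 250 bases before the transcription start of each member were searched for it on both strands in RefSeq promoters (GRCm38.p6). Promoters were given for 33 of the 34 members, 48 windows in all, and 81.25% of these windows held a match, against 38.6% of all 32851 mouse promoters of that length. ACGTG was found in 41.7% of the member windows and 16.6% of all windows, and GCGTG in 54.2% and 28.2%. The members were chosen in part as genes of the HIF response, so a higher share than in all promoters could follow from the choice alone. Some windows of the same gene overlap and count the same site again, as for Aldoa and Eno1. These shares are therefore a description and not a test. A match is only a run of letters and says nothing about binding in these cells. The windows below belong to 5 of the 8 members called in both fits that follow, so that a reader can see what lies before their starts. All 5 hold a match. Both whole Aldoc windows held 1 match each, but the 145 bases of the first that lie before the annotated gene held 0. Pfkl held 1 in its window, which lies inside the annotated gene. Pdk1 held 1 in its first window and 0 in its second. The printed windows read 5′ to 3′ along the gene, with every match, on either strand, in capitals.
Slc2a1: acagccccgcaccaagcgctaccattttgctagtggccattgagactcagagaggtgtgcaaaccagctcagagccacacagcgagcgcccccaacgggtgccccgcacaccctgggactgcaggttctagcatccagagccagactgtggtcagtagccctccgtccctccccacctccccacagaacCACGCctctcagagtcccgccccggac
Slc2a6: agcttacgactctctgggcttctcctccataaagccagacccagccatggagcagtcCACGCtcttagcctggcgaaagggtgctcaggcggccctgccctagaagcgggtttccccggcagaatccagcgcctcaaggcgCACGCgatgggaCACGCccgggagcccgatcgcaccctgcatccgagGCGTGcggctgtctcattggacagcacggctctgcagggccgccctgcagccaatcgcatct
Slc16a1: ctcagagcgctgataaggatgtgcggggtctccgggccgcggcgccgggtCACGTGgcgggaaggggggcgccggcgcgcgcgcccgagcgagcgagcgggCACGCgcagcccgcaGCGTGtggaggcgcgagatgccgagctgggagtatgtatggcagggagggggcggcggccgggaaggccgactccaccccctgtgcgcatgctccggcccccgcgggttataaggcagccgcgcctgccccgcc
Hk3: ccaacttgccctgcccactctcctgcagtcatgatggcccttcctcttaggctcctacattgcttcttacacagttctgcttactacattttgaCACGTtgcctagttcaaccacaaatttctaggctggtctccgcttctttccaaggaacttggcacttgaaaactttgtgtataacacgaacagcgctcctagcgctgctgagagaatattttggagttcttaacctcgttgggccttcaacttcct
Ldhb: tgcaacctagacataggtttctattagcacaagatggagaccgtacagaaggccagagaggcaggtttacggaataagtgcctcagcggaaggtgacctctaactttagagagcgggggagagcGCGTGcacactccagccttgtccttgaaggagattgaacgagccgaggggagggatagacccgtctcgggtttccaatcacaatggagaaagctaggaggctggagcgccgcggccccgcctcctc
The Slc2a1 stretch is chr4:119108495-119108710 on the plus strand, and its last 34 bases were left out because they lie inside the annotated gene. The others are chr2:27027999-27028248 on the minus strand for Slc2a6, chr3:104638414-104638663 on the plus strand for Slc16a1, chr13:55021386-55021635 on the minus strand for Hk3 and chr6:142507958-142508207 on the minus strand for Ldhb. Slc2a6 and Slc16a1 each held 4 matches, of which those in the Slc16a1 run CACGTG overlap and are counted as 2, whereas the Hk3 and Ldhb windows held 1 each. The whole Slc2a1 window held 2, of which the printed stretch keeps 1, because the other crosses the end of that stretch.

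Library quality touched every result on these genes. In 22 libraries 13423080 to 18124526 counts were assigned and the members held 0.660 to 0.786% of them. Replicate 3 of young asbestos Siglec F-high had 11889517 counts and 12528 genes detected, where the 22 had 17069 to 18820. Replicate 3 of old asbestos Siglec F-high had 3894699 counts, of which 54.1% fell on rRNA-related genes. The members held 0.507 and 0.147% of the counts in these libraries. Against the other 3 libraries of its group, the young replicate 3 was below all of them for 24 members and above all for 10, and the old replicate 3 was below for 29 and above for 4. Each comparison was therefore fitted with all 24 libraries and again with 22, without both replicates 3. Genes counted as called where edgeR's quasi-likelihood F test gave p-values that, after adjusting by Benjamini-Hochberg across every gene tested, were under 0.05 (13467 genes and 33 members with 24 libraries, 13629 genes and 34 members with 22). Only Egln3 failed the filter on low counts with 24 libraries. Values are CPM, counts scaled to library size with TMM factors, given for replicates 1 to 4 in that order, and fold changes are on the log2 scale ± SE.

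**Figure D1:**
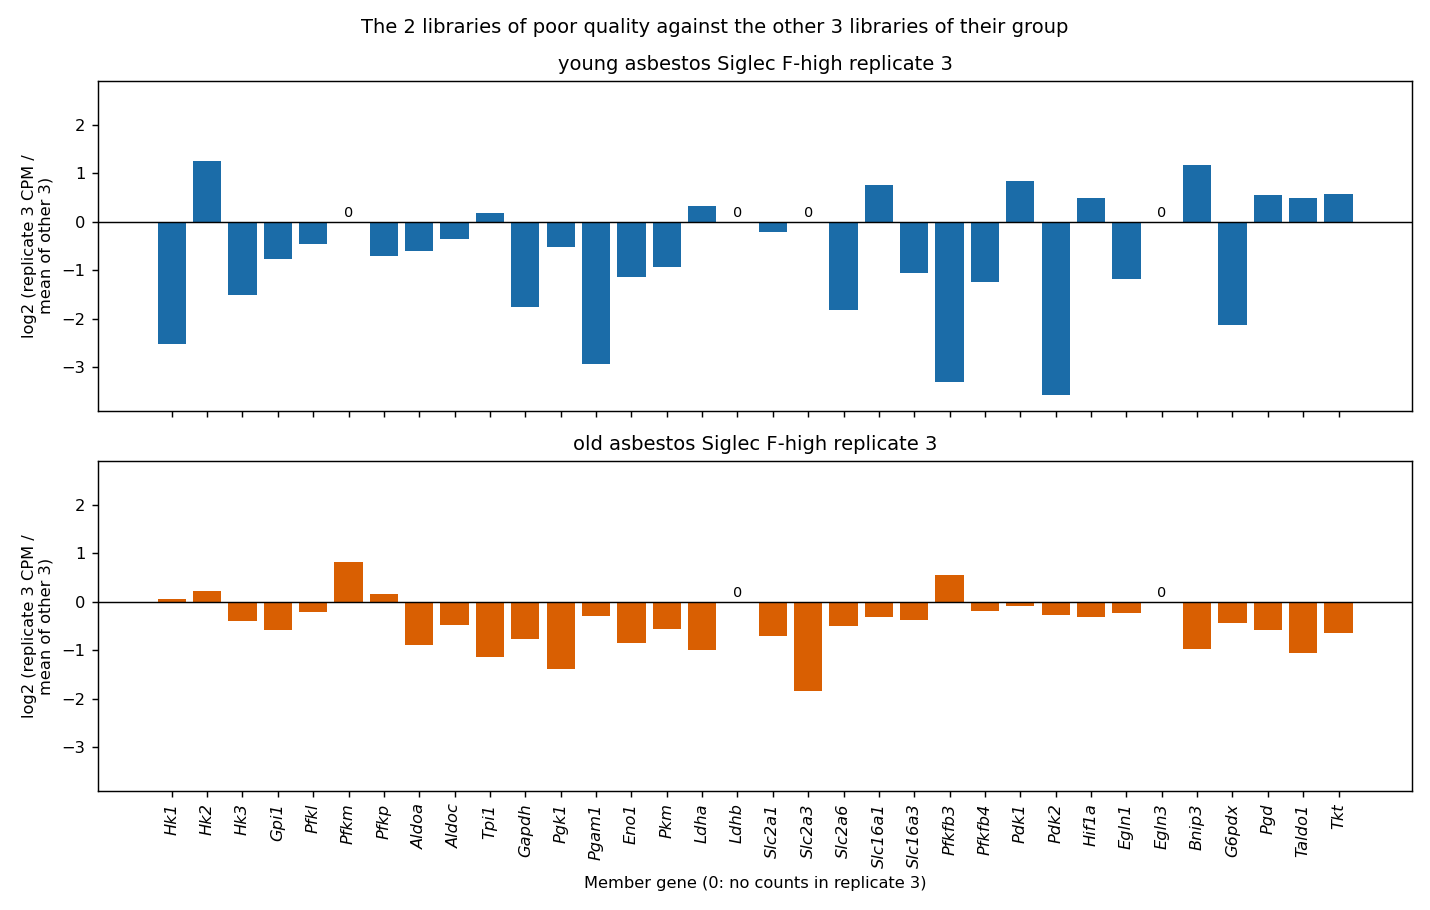
The log2 ratio (y axis) of each of the 34 members (x axis) in replicate 3 to the mean of the other 3 libraries of its group, for young (top) and old (bottom) asbestos Siglec F-high cells. Bars below 0 are members lower in replicate 3, such as Hk1, Gapdh and G6pdx in the young library, and a printed 0 marks members with no counts there.

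Per kilobase of exon, the members spanned a wide range that kept much the same order in every group. Aldoa, the main muscle-type aldolase, was the most abundant member, with 361 to 463 CPM per kb over the 6 group means (22 libraries), followed by Taldo1, transaldolase of the pentose phosphate pathway, at 256 to 302 CPM per kb. Gapdh, Pkm and Ldha lay between 113 and 170 CPM per kb. At the low end Ldhb, Egln3, Slc2a3 and Pfkm lay at or below 2.38 CPM per kb in every group mean. Of the glucose transporters Slc2a1 (GLUT1) was the most abundant, at 6.40 CPM per kb in young naive cells and 20.97 in old asbestos Siglec F-low cells.

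Age was compared within 3 settings. In naive Siglec F-high cells the glucose transporters Slc2a1 and Slc2a6 were higher in old animals, by 1.64-fold and 2.33-fold. With 24 libraries these were the 2 members called of 33, both higher, where 2.03% of all genes were called (1.68% higher and 0.349% lower). With 22 libraries 10 of 34 members were called, against 8.03% of all genes (5.11% higher and 2.91% lower). The 8 called only then were Aldoc (log2 fold change 0.45 ± 0.13), Pkm (0.29 ± 0.05), Slc16a1 (0.52 ± 0.15), Slc16a3 (0.23 ± 0.07), Hif1a (0.31 ± 0.06), G6pdx (0.21 ± 0.07) and Pgd (0.28 ± 0.08), which were higher, and Pfkfb3 (-0.62 ± 0.13), which was lower. No naive library was left out in the second fit, so these values differ between the fits mainly in the SE and not in the fold change. The median over the members was a log2 fold change of 0.15 with 24 and 0.16 with 22 libraries, and over all genes tested −0.01 and 0.00.

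In asbestos Siglec F-high cells Slc2a6 was again higher in old animals, by 3.29-fold with 24 libraries and 2.92-fold with 22, and so was Aldoc, the brain-type aldolase, by 1.47-fold and 1.49-fold. These were the 2 members called with 24 libraries, where 4.76% of all genes were called (2.89% higher and 1.87% lower). With 22 libraries 5 were called, all higher, against 7.32% of all genes (4.84% higher and 2.47% lower). Called only with 22 libraries were Slc16a3 (0.35 ± 0.08), Hif1a (0.31 ± 0.07) and Tkt (0.27 ± 0.07). In asbestos Siglec F-low cells Slc2a6 was the 1 member called with 24 libraries, at 2.24-fold higher in old animals, where 1.29% of all genes were called (0.869% higher and 0.423% lower). With 22 libraries 7 members were called, all higher, against 7.21% of all genes (3.80% higher and 3.41% lower). The others were Hk1 (0.29 ± 0.09), Hk3 (0.34 ± 0.10), Gpi1 (0.20 ± 0.05), Pfkm (0.88 ± 0.25), Slc16a3 (0.25 ± 0.07) and Tkt (0.26 ± 0.06). The member medians were 0.15 and 0.14 with 24 libraries in these settings, and 0.10 and 0.14 with 22, while the medians of all genes lay between −0.01 and 0.04.

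Cell-type markers moved with age as well. A list of 10 cell-cycle genes had a summed level of 408 to 475 CPM in young and 305 to 327 CPM in old naive cells, and 534 to 672 against 308 to 409 CPM in asbestos Siglec F-low cells. Of these 10, 6, 6 and 9 were called lower in old cells with 22 libraries in the naive Siglec F-high, asbestos Siglec F-high and asbestos Siglec F-low settings. A list of 7 epithelial genes, of which 5 were tested, summed to 173 to 273 CPM in young naive and 281 to 385 CPM in old naive cells. Sums of macrophage markers did not overlap between the ages in some asbestos cells. Leaving out both replicates 3, the sum of 10 monocyte-derived macrophage markers was 1539 to 2295 CPM in young and 2524 to 2824 CPM in old asbestos Siglec F-high cells, and that of 10 resident alveolar macrophage markers 22809.5 to 26715 and 35185 to 39574 CPM. In Siglec F-low cells the resident sum was 35650.3 to 47102 CPM in young and 51674 to 65981 CPM in old animals, and the monocyte-derived sums overlapped. With 22 libraries 3 monocyte-derived markers were called higher and 1 lower in old asbestos Siglec F-high cells and 5 higher in Siglec F-low cells. Of the resident markers 2 were called higher in the first, and 2 higher and 3 lower in the second. The part of these lists in the members' values was not tested.

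Asbestos was compared with naive in Siglec F-high cells of each age. In young animals Slc2a1, the monocarboxylate transporter Slc16a1 (MCT1) and Pdk1 were higher after asbestos, by 1.76-fold, 2.01-fold and 1.58-fold with 24 libraries and by 1.81-fold, 1.71-fold and 1.32-fold with 22. These were the 3 members called with 24 libraries, where 1.90% of all genes were called (1.43% higher and 0.475% lower). With 22 libraries 9 were called, all higher, against 5.06% of all genes (3.48% higher and 1.58% lower). The other 6 were Hk2 (0.36 ± 0.10), Hk3 (0.37 ± 0.11), Pgk1 (0.31 ± 0.09), Pgam1 (0.51 ± 0.12), Eno1 (0.33 ± 0.09) and Pkm (0.20 ± 0.06). The last 4 act after Gapdh, which was called nowhere. In the fit of 24 libraries, with replicate 3 kept, these genes were not called. Leaving out only replicate 1 of young asbestos Siglec F-high from that fit turned the log2 fold changes of Hk3, Pgam1, Eno1 and Pkm to -0.0309, -0.0602, -0.0155 and -0.0490. Pkm also turned negative there without replicate 2 (-0.0255) or 4 (-0.0754) of that group or young naive replicate 4 (-0.0123). Without replicate 3, young asbestos and young naive values of Hk3, Pgam1, Eno1 and Pkm did not overlap. In old animals no member was called by edgeR with 24 libraries, where 0.780% of all genes were called (0.713% higher and 0.0668% lower). An unadjusted p under 0.05 was found for 3 members, without the share of all genes at that threshold to read it against. With 22 libraries 4 of 34 were called, against 4.12% of all genes (3.16% higher and 0.969% lower), namely Hk3 (0.41 ± 0.11), Aldoc (0.52 ± 0.14), Slc2a1 (0.49 ± 0.12) and Slc16a1 (0.55 ± 0.15). The member medians were 0.12 and 0.13 in young and 0.04 and 0.14 in old animals, with 24 and 22 libraries, and those of all genes lay between −0.01 and 0.01. A list of 17 genes that respond to cell handling was lower after asbestos (10 of 17 called lower in young animals, and 6 lower and 1 higher in old ones, with 22 libraries). Of the cell-cycle list 4 and 3 of 10 genes were called higher after asbestos in young and old animals with 22 libraries, and of 10 monocyte-derived macrophage markers 4 and 3. The part of these lists in the members' values was not tested.

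Siglec F-low cells were compared with Siglec F-high cells after asbestos. Hexokinase 3, the liver-type phosphofructokinase Pfkl, Ldhb and Slc2a1 were higher in Siglec F-low cells at both ages. In young animals 5 members were called with 24 libraries, where 4.99% of all genes were called (3.41% higher and 1.58% lower). They were Hk3 (1.88-fold), Pfkl (1.71-fold), Aldoc (1.58-fold), Ldhb (7.33-fold) and Slc2a1 (1.54-fold). With 22 libraries 11 were called, all higher, against 12.0% of all genes (7.42% higher and 4.60% lower). Added were Hk1 (0.52 ± 0.09), Aldoa (0.22 ± 0.07), Pgk1 (0.32 ± 0.09), Pgam1 (0.54 ± 0.11), Eno1 (0.31 ± 0.09) and Hif1a (0.23 ± 0.07). The replicate block in the fit of 22 libraries added Hk2, Slc16a1 and Ldha, while the share of all genes called went from 12.0 to 17.9%. With 24 libraries but only the compared groups fitted, Pfkl alone of the 5 was still called, and the adjusted p of the other 4 reached 0.0772 to 0.315 over the alternatives.

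In old animals 4 members were called with 24 libraries, where 4.30% of all genes were called (2.64% higher and 1.66% lower). They were Hk3 (2.13-fold), Pfkl (1.51-fold), Ldhb (17.9-fold) and Slc2a1 (1.54-fold). With 22 libraries 11 were called, 9 higher and 2 lower, against 11.6% of all genes (6.30% higher and 5.28% lower). Added as higher were Hk1 (0.68 ± 0.09), Hk2 (0.39 ± 0.10), Pgam1 (0.65 ± 0.11), Eno1 (0.39 ± 0.09) and Ldha (0.32 ± 0.09). Pdk1 (-0.37 ± 0.09) and G6pdx (-0.27 ± 0.07), the rate-limiting enzyme of the pentose phosphate pathway, were lower. The replicate block in the fit of 22 libraries added Pgk1, while the share of all genes called went from 11.6 to 14.3%. The member medians were 0.19 and 0.13 in young and 0.20 and 0.07 in old animals, with 24 and 22 libraries, and those of all genes lay between −0.01 and 0.00.

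The sorts differed in Siglecf as labelled, while the resident alveolar macrophage markers went both ways. Siglecf itself was at 236 to 294 CPM in young and 148 to 221 CPM in old Siglec F-low cells, and at 437 to 476 and 454 to 472 CPM in the Siglec F-high libraries other than replicate 3. Of 10 monocyte-derived macrophage markers 8 were called higher in Siglec F-low cells at each age with 22 libraries, and their sum was 4712 to 7230 CPM in young Siglec F-low cells against 1539 to 2295 CPM in young Siglec F-high cells. The sum of 10 resident alveolar macrophage markers, among them Fabp4 and Marco, was 35650.3 to 47102 CPM in young Siglec F-low and 22809.5 to 26715 CPM in young Siglec F-high cells. Of these 10, with 22 libraries, 3 were called higher and 4 lower in Siglec F-low cells of young animals, and 2 higher and 4 lower in those of old animals. The part of the make-up of the sorts in the members' values was not tested.

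The age and asbestos comparisons and the sort comparisons share libraries with one another, so their lists of genes are not independent. Whether an effect differed with age was tested directly. No member was called for the interaction of age and asbestos or of age and sort, with 24 or with 22 libraries. Over all genes edgeR called 0 with 24 libraries (0.00%) and 2 with 22 (0.0147%) in each interaction. At an unadjusted p under 0.05 the first interaction held 2 members with 24 libraries and 2 with 22, and the second 0 and 2. The share of all genes at that unadjusted threshold is not given here, so these counts are not read as a result. For Slc2a1 the effect of asbestos in old animals minus that in young ones was -0.44 ± 0.21 with 24 libraries, a difference that did not pass (adjusted p = 0.587).

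**Figure D2:**
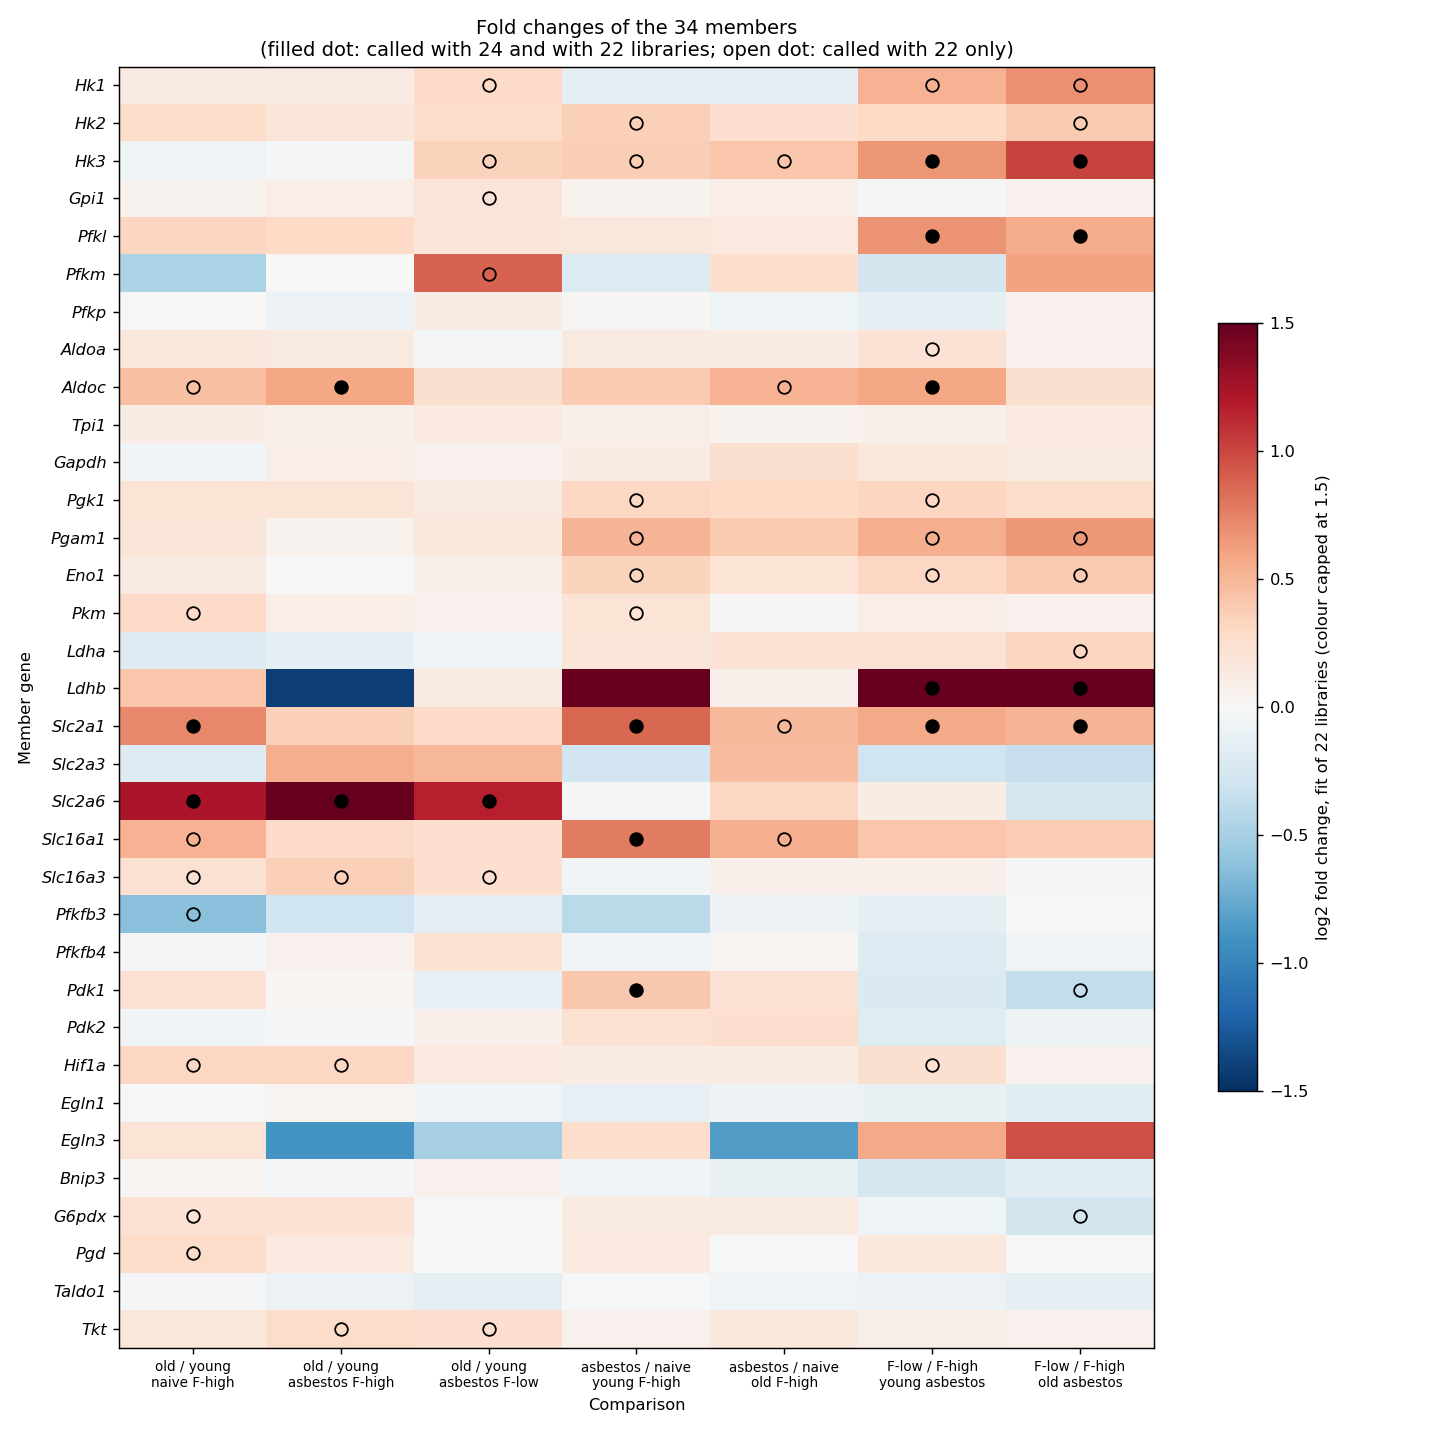
Log2 fold changes of the 34 members (rows) in the 7 comparisons of 2 groups (columns) from the fit of 22 libraries, in red where the first-named group was higher and in blue where it was lower, with the colour capped at 1.5. Filled dots mark members called with both 24 and 22 libraries and open dots those called with 22 only. Slc2a6 is dark red in the 3 age columns and Hk3, Pfkl, Ldhb and Slc2a1 carry filled dots in both sort columns.

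Glucose enters through the transporters. Slc2a1 (GLUT1), on chromosome 4 at 119108711 to 119137983 (GRCm38), read 23.3, 22.02, 23.2 and 21.2 CPM in young naive and 37.1, 35.6, 30.8 and 43.9 CPM in old naive cells. After asbestos it read 47.3, 37.97, 35.3 and 36.9 CPM in young and 53.5, 49.8, 31.9 and 51.6 CPM in old Siglec F-high cells. In Siglec F-low cells it read 58.8, 68.8, 57.3 and 57.5 CPM in young and 89.5, 62.8, 62.8 and 79.1 CPM in old animals. The naive groups did not overlap, the young asbestos libraries all lay above the young naive ones, and at each age all Siglec F-low libraries lay above all Siglec F-high ones. With 24 libraries old naive exceeded young naive by 0.72 ± 0.15 (adjusted p = 0.00786), and young asbestos exceeded young naive by 0.81 ± 0.15 (adjusted p = 0.00386). Siglec F-low exceeded Siglec F-high by 0.62 ± 0.15 in young (adjusted p = 0.0133) and 0.62 ± 0.15 in old animals (adjusted p = 0.0162). The young sort call was lost without young Siglec F-low replicate 2 and the old one without old Siglec F-low replicate 1 or 4, and both were lost when only the compared groups were fitted (adjusted p up to 0.0772 and 0.0788). The young asbestos call was lost in that last fit too (adjusted p = 0.134). In old asbestos Siglec F-high cells the outlying replicate 3 was at 31.9 CPM, within the range of the old naive cells, and the other 3 were above that range. Old asbestos against old naive was 0.37 ± 0.15 with all libraries (adjusted p = 0.422) and 0.49 ± 0.12 without both replicates 3 (adjusted p = 0.0237). After asbestos old and young differed by 0.28 ± 0.15 in Siglec F-high (adjusted p = 0.243) and 0.28 ± 0.15 in Siglec F-low cells (adjusted p = 0.711), neither of which passed in either fit.

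Slc2a6 (GLUT6), a transporter of lysosomal membranes, on chromosome 2 at 27021363 to 27027998, set old cells apart from young ones in all 3 settings. It read 10.8, 9.23, 8.26 and 8.83 CPM in young naive and 26.9, 16.2, 20.4 and 22.97 CPM in old naive cells. After asbestos it read 10.3, 8.30, 2.61 and 9.11 against 24.3, 32.2, 18.8 and 23.5 CPM in young and old Siglec F-high cells, and 9.85, 9.64, 11.1 and 9.25 against 23.5, 25.6, 13.6 and 26.6 CPM in young and old Siglec F-low cells. All 12 old libraries lay above all 12 young ones, the lowest of them old Siglec F-low replicate 3. The age difference was 1.22 ± 0.27 in naive (adjusted p = 0.0142), 1.72 ± 0.28 in asbestos Siglec F-high (adjusted p = 6.59e-04) and 1.16 ± 0.27 in asbestos Siglec F-low cells (adjusted p = 0.0294) with 24 libraries. The naive call was lost without young naive replicate 3 or 4 or old naive replicate 1 (adjusted p up to 0.0660), and the Siglec F-high call when only the compared groups were fitted (adjusted p = 0.269). In Siglec F-low cells leaving out any of the 8 libraries compared except old replicate 3 took the adjusted p above 0.05 (up to 0.106). With 22 libraries the 3 adjusted p-values were 5.54e-05, 2.81e-05 and 1.54e-04. It was called for neither asbestos nor sort, with -0.01 ± 0.20 for young asbestos against naive and -0.26 ± 0.18 for old Siglec F-low against F-high with 22 libraries. Slc2a3 (GLUT3) stayed at or below 3.20 CPM in every library and was called nowhere.

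Lactate leaves through the monocarboxylate transporters. Slc16a1 (MCT1), on chromosome 3 at 104638668 to 104658462, read 23.8, 26.7, 21.2 and 21.7 CPM in young naive and 50.05, 33.6, 67.7 and 36.4 CPM in young asbestos Siglec F-high cells, with no overlap. The highest of these, 67.7 CPM, was the outlying replicate 3. The difference was 1.004 ± 0.19 with it (adjusted p = 0.00517) and 0.77 ± 0.16 without both replicates 3 (adjusted p = 0.00442). It was lost when only the compared groups were fitted (adjusted p = 0.291). Old naive cells read 29.6, 45.6, 28.6 and 29.3 CPM, with replicate 2 high, and old asbestos Siglec F-high cells 46.8, 48.2, 39.2 and 50.7 CPM. Siglec F-low cells read 65.1, 58.9, 47.05 and 43.4 CPM in young and 65.9, 60.8, 63.7 and 64.1 CPM in old animals. In old cells Siglec F-low lay above F-high in every library, by 0.45 ± 0.19 with 24 (adjusted p = 0.240) and 0.38 ± 0.15 with 22 libraries (adjusted p = 0.120), which did not pass. Slc16a3 (MCT4), the lactate exporter of glycolytic cells, was called higher in old cells in all 3 settings with 22 libraries, at 1.17-fold to 1.28-fold, and in none with 24.

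Hexokinases trap glucose as glucose 6-phosphate. Hk3, the hexokinase of myeloid cells, on chromosome 13 at 55005985 to 55021385, read 66.2, 56.96, 21.4 and 60.3 CPM in young asbestos Siglec F-high and 99.5, 102, 93.3 and 91.9 CPM in young Siglec F-low cells. In old animals it read 60.9, 57.2, 45.7 and 62.3 CPM in Siglec F-high and 125, 102, 119 and 142 CPM in Siglec F-low cells. The sorts did not overlap at either age. The difference was 0.91 ± 0.21 in young (adjusted p = 0.0123) and 1.09 ± 0.22 in old animals (adjusted p = 0.00412). With 22 libraries it was 0.66 ± 0.11 and 1.01 ± 0.11 (adjusted p = 2.00e-04 and 1.27e-06). Naive cells read 54.4, 43.1, 47.7 and 43.9 CPM in young and 43.8, 51.3, 37.4 and 48.5 CPM in old animals, below every asbestos Siglec F-high library of the same age other than replicate 3.

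Hk2, the inducible hexokinase and a known HIF target, was near 51.5 ± 2.88 (SD, n = 4) CPM in young naive and 62.3 ± 8.33 (SD, n = 4) CPM in old naive cells. Its values were 68.3, 62.6, 157 and 67.4 CPM in young asbestos Siglec F-high cells, where replicate 3 stood far above the rest. The difference from young naive was 0.78 ± 0.21 with it (adjusted p = 0.0520) and 0.36 ± 0.10 without both replicates 3 (adjusted p = 0.0487). Siglec F-low cells read 79.4, 77.7, 87.01 and 82.1 CPM in young and 109, 86.99, 87.4 and 108 CPM in old animals, and old Siglec F-high cells 85.4, 66.1, 86.6 and 71.3 CPM. The old sorts did not overlap and differed by 0.39 ± 0.10 with 22 libraries (adjusted p = 0.0152), but by 0.35 ± 0.21 with 24, which did not pass. Hk1, the housekeeping hexokinase, was higher in Siglec F-low cells at both ages with 22 libraries, by 1.43-fold and 1.61-fold, and its replicate 3 value in young Siglec F-high cells was 4.64 CPM against 24.6 to 28.3 CPM in the other 3.

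Phosphofructokinase commits sugar to glycolysis. Pfkl, its liver-type gene, on chromosome 10 at 77986947 to 78010083, read 45.4, 45.1, 34.1 and 50.8 CPM in young asbestos Siglec F-high and 67.7, 87.8, 71.3 and 74.2 CPM in young Siglec F-low cells. In old animals the values were 56.9, 53.02, 49.8 and 62.7 and 87.9, 67.6, 82.8 and 101 CPM. All Siglec F-low libraries lay above all Siglec F-high ones of the same age, by 0.78 ± 0.14 in young (adjusted p = 9.25e-04) and 0.60 ± 0.14 in old animals (adjusted p = 0.0123). The old call was lost without old Siglec F-low replicate 4 (adjusted p = 0.0660). Naive cells read 46.3, 45.1, 40.5 and 35.2 CPM in young and 58.98, 50.9, 50.5 and 48.6 CPM in old animals, which did not overlap either, though the age difference of 0.33 ± 0.11 did not pass with 22 libraries (adjusted p = 0.0740). Pfkp, the platelet-type gene, ranged over 204 to 254 CPM in young naive and 228 to 245 CPM in old Siglec F-low cells and was called nowhere. Pfkm, the muscle-type gene, stayed at or below 4.08 CPM and was called only in old against young Siglec F-low cells with 22 libraries. Its exons share 18 bases with the opposite-strand gene Senp1, and the strand setting of the counting is not given in the sources used here.

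Of the enzymes between fructose bisphosphate and pyruvate, Aldoc alone was called in both fits. Aldoc, on chromosome 11 at 78322968 to 78327781, read 82.8, 67.4, 59.5 and 77.6 CPM in young and 105, 104, 80.9 and 128 CPM in old asbestos Siglec F-high cells. The groups overlapped through old replicate 3, and without both replicates 3 they did not. The age difference was 0.55 ± 0.16 (adjusted p = 0.0448), close to the threshold, and it was lost in 20 of 33 alternative fits (adjusted p up to 0.636 when only the compared groups were fitted). With 22 libraries it was 0.58 ± 0.15 (adjusted p = 0.0161). Siglec F-low cells read 141, 103, 102 and 109 CPM in young and 139, 117, 128 and 148 CPM in old animals. The young sorts did not overlap and differed by 0.66 ± 0.16 (adjusted p = 0.0125), a call lost without young Siglec F-low replicate 1, while the old ones overlapped. Naive cells read 74.5, 53.3, 51.2 and 51.5 CPM in young animals, with replicate 1 high, and 73.1, 68.7, 81.6 and 91.5 CPM in old ones.

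Pgam1, Eno1 and Pgk1 were called in several comparisons with 22 libraries and in none with 24. Pgam1 (phosphoglycerate mutase) was 1.42-fold higher after asbestos in young animals and 1.46-fold and 1.57-fold higher in Siglec F-low cells of young and old animals. Its outlying young library held 3.19 CPM, against 21.1 to 27.5 CPM in the other 3. Eno1 (enolase) changed by 1.26-fold, 1.24-fold and 1.31-fold in the same comparisons. Pgk1, called for young asbestos against naive and for the young sorts, changed by 1.24-fold and 1.25-fold. Aldoa was called only for the young sorts (1.17-fold) and Gpi1 only for age in Siglec F-low cells (1.15-fold), both with 22 libraries. Tpi1 and Gapdh were called nowhere, and Gapdh, which is often used as a reference gene, held 568 to 631 CPM in 3 young asbestos Siglec F-high libraries and 176 CPM in the fourth.

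Pkm, pyruvate kinase, read 673, 639, 637 and 597 CPM in young naive and 820.5, 757, 738 and 779.8 CPM in old naive cells, which did not overlap. The difference was 0.28 ± 0.16 with 24 libraries (adjusted p = 0.736) and 0.29 ± 0.05 with 22 (adjusted p = 0.00115). Young asbestos Siglec F-high cells read 733, 699.9, 382 and 766 CPM and differed from young naive by 0.20 ± 0.06 with 22 libraries (adjusted p = 0.0452) but by 0.02 ± 0.16 with 24. It was at 778 ± 27.7 (SD, n = 3) CPM in old asbestos Siglec F-high cells without replicate 3, at 783 ± 28.03 (SD, n = 4) CPM in young and at 816 ± 13.1 (SD, n = 4) CPM in old Siglec F-low cells, and was called in no other comparison.

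Lactate dehydrogenase was nearly all Ldha, the muscle-type subunit and a classical HIF target. Ldha read 444, 491, 397 and 378 CPM in young and 375, 385, 345 and 388 CPM in old naive cells, and 513, 469, 606 and 472 against 422, 458, 219 and 423 CPM in young and old asbestos Siglec F-high cells. Siglec F-low cells read 609, 621, 502 and 519 CPM in young and 542, 539, 527 and 565 CPM in old animals. The old sorts did not overlap and differed by 0.32 ± 0.09 with 22 libraries (adjusted p = 0.0167) and 0.51 ± 0.16 with 24 (adjusted p = 0.0792). The other 6 comparisons of Ldha did not pass in either fit. The heart-type subunit Ldhb, on chromosome 6 at 142490249 to 142507957, was near the detection limit outside Siglec F-low cells. It read 0.697, 0.199, 0 and 0.873 CPM in young asbestos Siglec F-high and 2.43, 3.88, 3.66 and 3.71 CPM in young Siglec F-low cells. In old animals it read 0.301, 0.176, 0 and 0.146 and 2.72, 2.09, 5.42 and 4.74 CPM. These values rest on 31 and 10 counts in the 4 young and 4 old asbestos Siglec F-high libraries and on 231 and 238 counts in the Siglec F-low ones, and the naive groups held 11 and 14. No Siglec F-high library of any group reached the lowest Siglec F-low one. The difference was 2.87 ± 0.60 in young (adjusted p = 0.00488) and 4.16 ± 0.72 in old animals (adjusted p = 0.00102), and it was 2.56 ± 0.48 and 4.10 ± 0.57 with 22 libraries.

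Ldhb is also abundant in lymphocytes. A list of 8 T and NK cell markers summed to 47.1 to 101 CPM in Siglec F-low libraries and to 13.9 to 42.0 CPM in Siglec F-high libraries, and 1 of the 8 was called higher in Siglec F-low cells at each age. That gene was Il7r, at 39.3 to 54.4 CPM in young and 48.8 to 92.8 CPM in old Siglec F-low cells, against 6.86 to 16.7 and 8.20 to 10.3 CPM in the Siglec F-high groups of the same ages. Cd3e, a subunit of the T cell receptor complex, was at 1.42 to 3.76 and 0.912 to 2.48 CPM in Siglec F-low and at 0 to 4.49 and 1.33 to 3.46 CPM in Siglec F-high cells, and was not called. The part of such cells in the Ldhb values was not tested.

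**Figure D3:**
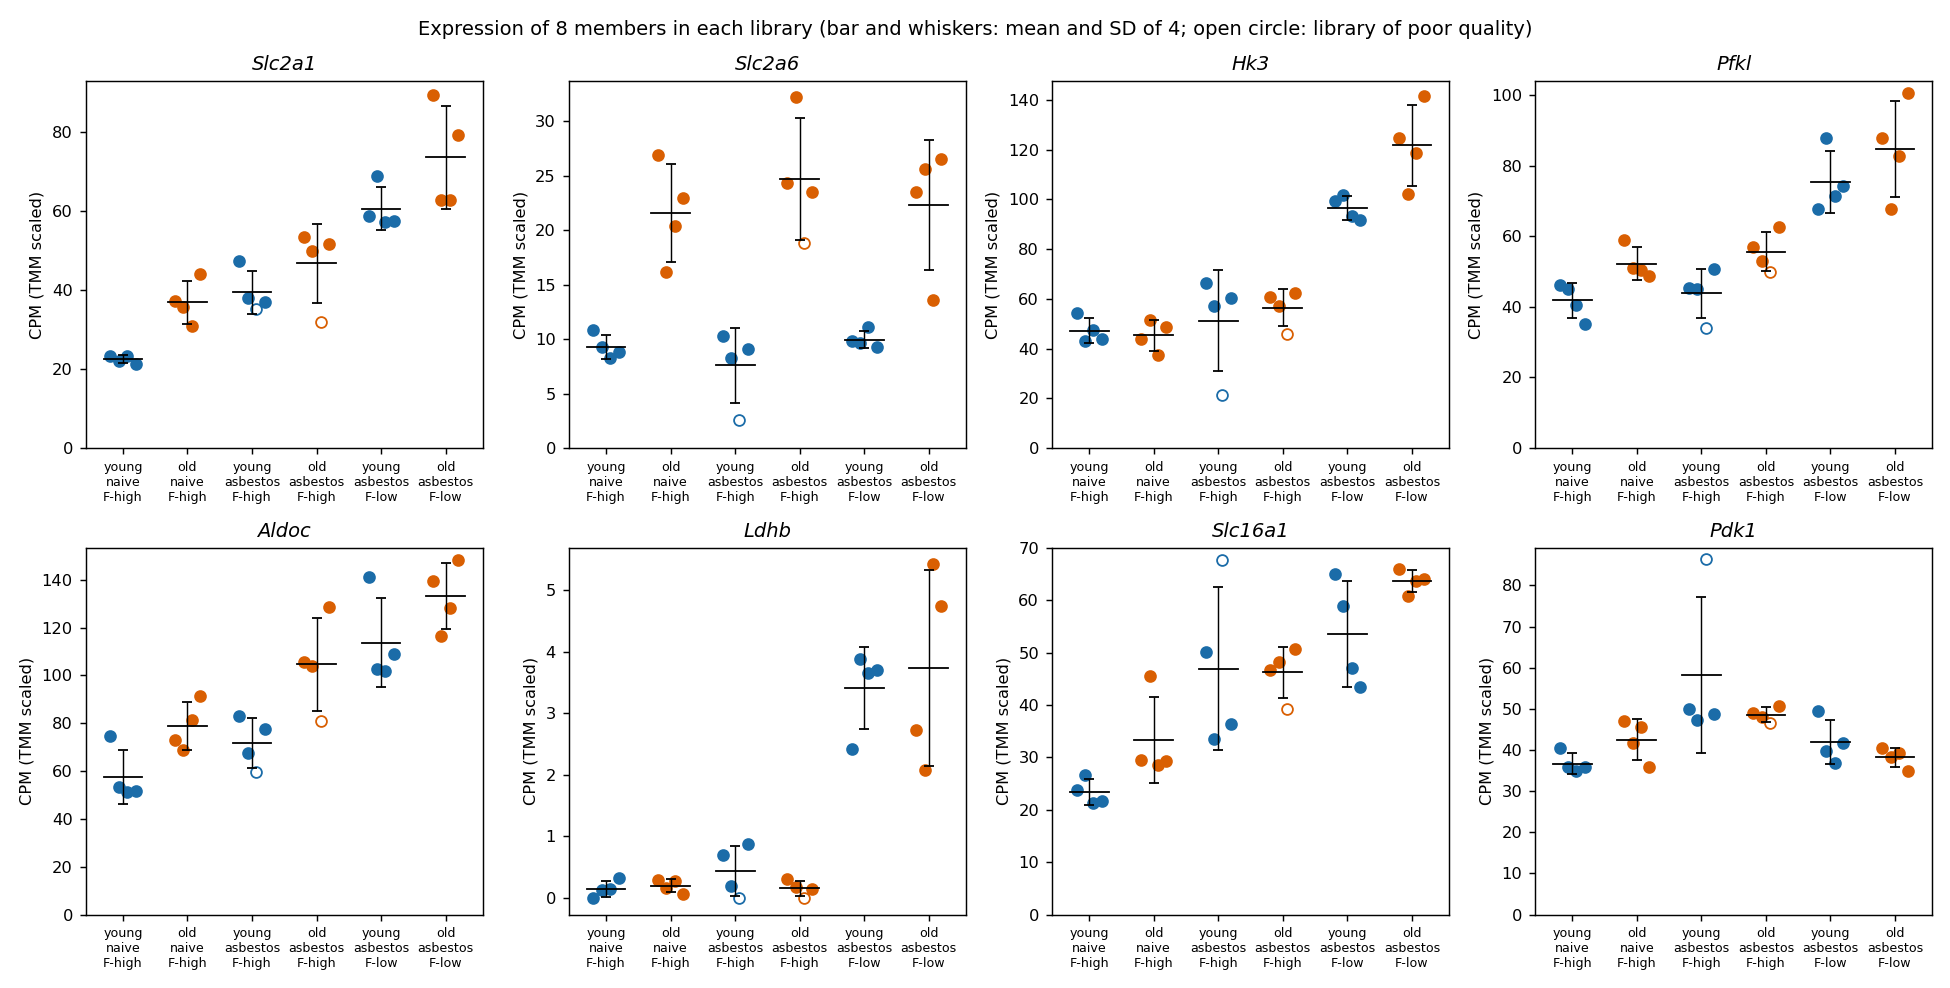
CPM (y axis) of the 8 members called with both 24 and 22 libraries in some comparison, in each library of the 6 groups (x axis), with young animals in blue and old animals in orange. Bars and whiskers are mean and SD of 4 libraries and open circles are the outlying replicates 3. Slc2a6 separates old from young libraries in all 3 settings, and Hk3, Pfkl, Ldhb and Slc2a1 are highest in the Siglec F-low groups.

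Pfkfb3, which makes the activator of phosphofructokinase, read 50.03, 46.3, 72.5 and 75.4 CPM in young naive and 43.7, 38.7, 39.3 and 36.6 CPM in old naive cells, without overlap. It was lower in old cells, with a log2 fold change of -0.62 ± 0.13 with 22 libraries (adjusted p = 0.00407), with nearly the same fold change but a wider error with 24 (-0.63 ± 0.37, adjusted p = 0.803). Pfkfb4, its more abundant relative, was called nowhere. Pdk1, the kinase that shuts pyruvate dehydrogenase, on chromosome 2 at 71873224 to 71903858, read 40.5, 35.8, 34.8 and 35.8 CPM in young naive and 49.996, 47.4, 86.5 and 48.6 CPM in young asbestos Siglec F-high cells, with no overlap. The outlying replicate 3 held the highest value. The difference was 0.66 ± 0.15 with it (adjusted p = 0.0244) and 0.40 ± 0.09 without both replicates 3 (adjusted p = 0.0119). With 24 libraries the call was lost without young naive replicate 2, 3 or 4 and when only the compared groups were fitted (adjusted p up to 0.610). In old animals Pdk1 read 49.1, 47.9, 46.6 and 50.7 CPM in Siglec F-high and 40.4, 38.4, 39.3 and 34.96 CPM in Siglec F-low cells after asbestos, and the sorts did not overlap. Siglec F-low cells were lower, with a log2 fold change of -0.37 ± 0.09 with 22 libraries (adjusted p = 0.0108), and it was -0.35 ± 0.15 with 24, which did not pass. Pdk2 was called nowhere.

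Hif1a, on chromosome 12 at 73901375 to 73947530, read 88.6, 96.3, 84.01 and 95.3 CPM in young naive and 113, 113, 111 and 113 CPM in old naive cells. After asbestos it read 109, 92.2, 138 and 93.9 against 123, 118, 98.0 and 123 CPM in young and old Siglec F-high cells. Siglec F-low cells read 125, 113, 110.1 and 115 CPM in young and 130.4, 132, 116 and 132 CPM in old animals. The naive groups did not overlap, and neither did the asbestos Siglec F-high groups without both replicates 3. Old exceeded young by 0.31 ± 0.06 in naive (adjusted p = 0.00276) and 0.31 ± 0.07 in asbestos Siglec F-high cells (adjusted p = 0.00971) with 22 libraries. With 24 the differences were 0.30 ± 0.11 and 0.10 ± 0.11 and did not pass. Young Siglec F-low exceeded F-high by 0.23 ± 0.07 with 22 libraries (adjusted p = 0.0266). Egln1, the main oxygen-sensing hydroxylase, and Bnip3, a mitophagy receptor and HIF target, were called in no comparison. Egln3, whose transcript rises in hypoxia, stayed at or below 0.8288 CPM in every library. HIF-1α is regulated mostly as a protein, which RNA-seq does not measure.

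In the oxidative arm of the pentose phosphate pathway G6pdx read 186, 182, 166 and 168 CPM in young naive and 202, 190.1, 214 and 207 CPM in old naive cells, without overlap, and differed by 0.21 ± 0.07 with 22 libraries (adjusted p = 0.0498). After asbestos it read 201, 182, 43.8 and 196 and 236, 211, 164 and 221 CPM in young and old Siglec F-high cells. Siglec F-low cells read 206, 169, 181 and 184 and 202, 186, 173 and 181 CPM. Old Siglec F-low cells were lower than old Siglec F-high ones, with a log2 fold change of -0.27 ± 0.07 with 22 libraries (adjusted p = 0.0147), and no G6pdx difference passed with 24. Its exons share 418 bases with Ikbkg on the opposite strand. Pgd, the next enzyme, was called for age in naive cells with 22 libraries (1.21-fold). In the non-oxidative arm transketolase, Tkt, was called higher in old asbestos cells of both sorts with 22 libraries (1.21-fold and 1.19-fold), while with 24 its fold change in Siglec F-high cells was -0.03 ± 0.14. Young replicate 3 held 822 CPM of Tkt and old replicate 3 426 CPM, above and below the 538 to 565 and 661 to 667 CPM of the other libraries of their groups. Taldo1 was called nowhere. Further members whose exons overlap a gene on the opposite strand include Pfkp (748 bases with Pitrm1), Hif1a (330 with Gm15283), Slc2a1 (105 with Gm12868), Gapdh (68 with Iffo1) and Hk3 (34 with Unc5a). Exons are shared on the same strand by Pkm (767 bases with Gm49759), Pfkm (341 with Gm26513) and Hif1a (148 with Gm49321), among others. How reads in shared exons were counted is not given in the sources used here. In all, 8 members were called with both 24 and 22 libraries in some comparison, against 10.3% of all genes tested in both fits. With 22 libraries alone 24 were called in some comparison, against 27.9% of all genes, and 10 in none.

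Shares within a gene family, from counts per kilobase in each library, are not altered by library size and are given as a description without a test. Hk3 made up 48.5 to 55.7% of hexokinase counts per kb in asbestos Siglec F-high libraries other than replicates 3 and 56.2 to 61.7% in Siglec F-low libraries. Pfkl made up 26.8 to 35.6% of phosphofructokinase in the same Siglec F-high libraries and 35.1 to 43.9% in Siglec F-low ones. Slc2a6 made up 29.96, 19.5 and 15.1% of the 3 glucose transporters on average in young naive, asbestos Siglec F-high and Siglec F-low cells, and 38.2, 35.3 and 24.5% in the old counterparts. Slc16a1 made up on average 31.7% of the 2 monocarboxylate transporters in young naive cells, 44.6% in young asbestos Siglec F-high and 50.5% in young Siglec F-low cells. Ldhb made up at most 0.388% of lactate dehydrogenase in any Siglec F-high library and 0.810 to 2.12% in Siglec F-low libraries.

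**Figure D4:**
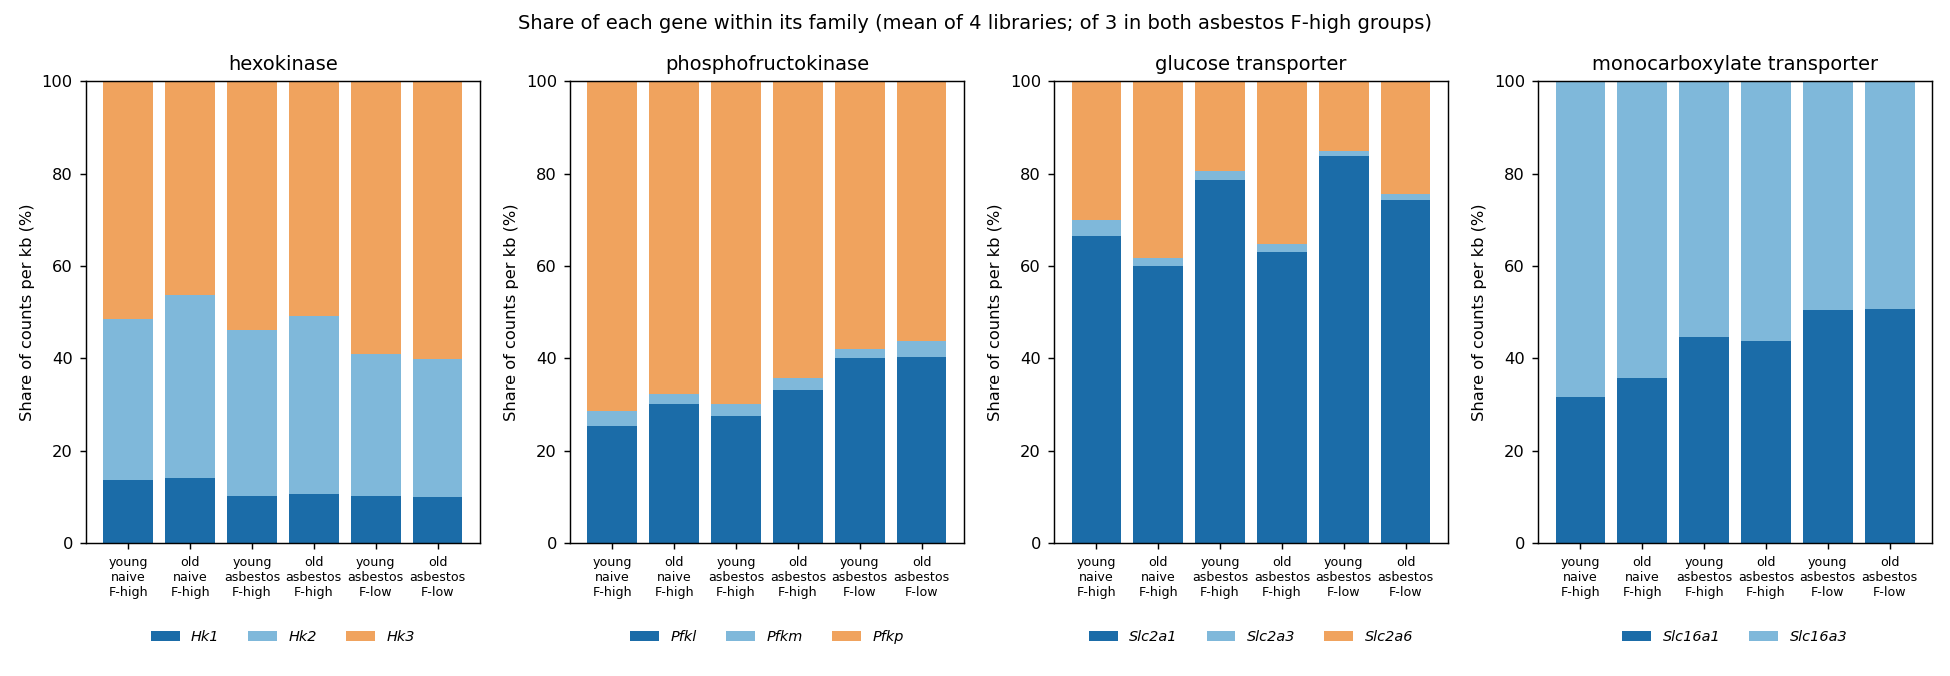
Mean share (y axis, percent of counts per kb) of each gene within the hexokinases, phosphofructokinases, glucose transporters and monocarboxylate transporters in the 6 groups (x axis), without the outlying replicates 3. Hk3 and Pfkl take larger shares in the Siglec F-low groups, Slc2a6 larger shares in old than in matched young groups, and Slc16a1 larger shares after asbestos.

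Other genes of the same pathways were read from lists of 32 further glycolysis and gluconeogenesis genes (22 tested), 12 genes of pyruvate entry into mitochondria (all tested), 10 further pentose phosphate genes (9 tested), 12 HIF pathway genes (11 tested) and 32 further HIF targets (25 tested). With age in naive cells 1, 1, 0, 0 and 1 of these were called with 24 libraries, all higher in old cells. They were Ldhd, the D-lactate dehydrogenase (1.43 ± 0.23, adjusted p = 4.41e-04), Pdk4, a pyruvate dehydrogenase kinase of the fasted and fat-burning state (1.82 ± 0.33, adjusted p = 0.00232), and the hypoxia-responsive gene Ndrg1 (1.81 ± 0.32, adjusted p = 0.00183). Pdk4 read 29.3, 27.1, 25.8 and 24.3 CPM in young and 118, 68.98, 64.3 and 125 CPM in old naive cells. In asbestos Siglec F-high cells 3, 1, 3, 0 and 3 were called with age, 8 higher and Galm and Rpia lower, and the lower pair did not pass with 22 libraries. Among those higher were Ldhd (1.45 ± 0.23), Ndrg1 (1.81 ± 0.34) and Fbp1 (2.85 ± 0.52), each called with 22 libraries too. In Siglec F-low cells only Tfrc, the transferrin receptor, passed with 24 libraries (1.12 ± 0.23, adjusted p = 0.0108). Of all genes 2.03% were called with 24 libraries for age in naive, 4.76% in asbestos Siglec F-high and 1.29% in asbestos Siglec F-low cells. The list counts are not read as a result about the pathways.

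Fbp1, fructose bisphosphatase of gluconeogenesis, was higher after asbestos at both ages. Fbp1 had no counts in the 4 young naive libraries and 0.0583, 0.112, 0 and 0 CPM in old naive ones, against 20.7, 14.2, 14.99 and 7.55 CPM in young and 153, 152, 9.80 and 87.05 CPM in old asbestos Siglec F-high cells. It was called at both ages (adjusted p = 5.38e-05 and 1.92e-06), and no fold change is given against groups at or near 0. In Siglec F-low cells it read 92.2, 178, 76.1 and 42.2 CPM in young and 395, 323, 322 and 310.2 CPM in old animals, above every Siglec F-high library of the same age. The HIF-2α gene Epas1 was higher after asbestos in young animals (1.29 ± 0.29, adjusted p = 0.0221) and in young Siglec F-low cells (1.21 ± 0.29, adjusted p = 0.0143). With 24 libraries 1, 0, 0, 2 and 1 genes of the 5 lists were called for asbestos in young and 1, 0, 0, 1 and 0 in old animals, all higher. For the sorts 2, 0, 0, 2 and 1 were called in young and 1, 1, 0, 0 and 1 in old animals, all higher in Siglec F-low cells, among them Tfrc at both ages (1.002 ± 0.23 and 1.97 ± 0.24) and the neuronal enolase Eno2 (2.96 ± 0.71 and 2.66 ± 0.73). Of all genes 1.90 and 0.780% were called for asbestos in young and old animals with 24 libraries, and 4.99 and 4.30% for the sorts. With 22 libraries the lists held 3, 1, 0, 0 and 1 genes higher and 3, 1, 2, 0 and 1 lower in old Siglec F-low cells. For the sorts in old animals 11.6% of all genes were called with 22 libraries. These list counts too are not read as a result about the pathways. Eno2 stayed at or below 3.53 CPM. Over these lists the medians with 24 libraries ranged from −0.07 to 0.54 over the 7 comparisons, the highest in the HIF pathway list for asbestos in young animals, which was −0.07 with 22 libraries.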

How the data were processed

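Macrophages sorted from mouse lungs were profiled by RNA-seq in 24 libraries, 6 groups of 4. The authors deposited a table of whole-number counts per gene, with no normalisation. The submitters' processing notes name bcl2fastq 2.19.1, FastQC, Trimmomatic 0.36, STAR 2.6.0, HTSeq 0.11.2 and the mm10 build, and the annotation release and strand setting are not given in the sources used here.

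From the counts, edgeR 4.0.16 in R 4.3.3 kept genes by filterByExpr (minimum count 10, minimum total 15), scaled libraries by TMM and fitted the quasi-likelihood F test with 1 term per group over all 24 libraries, and again over 22. Adjusted p-values are Benjamini-Hochberg over all genes tested, called under 0.05. SE is the log2 fold change divided by the square root of F. The test was checked on simulated counts. CPM use the TMM factors of the 24 libraries. Gene positions are from GENCODE on GRCm38.

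The members and all lists were chosen with earlier results of these data known. All 34 members are accounted for: those called in both fits are given in every library, those called in 1 fit by fold change, and Hif1a, Slc2a1, Hk2, Pkm, Ldha and G6pdx throughout. Of other lists at most 4 genes a comparison are named, by smallest p among those called in both fits, and 1 gene that this rule would name is not reported here.

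Replicate numbers come from the labels, which do not say that they mark a shared animal or day. With 24 libraries the correlations of same-numbered deviations between the sorts ran from −0.295 to 0.341 in young and 0.082 to 0.279 in old animals. With 22 they ran from 0.110 to 0.455 and from 0.210 to 0.307, all over 0.1, and the block is therefore given beside the sort results. Young naive and young Siglec F-low libraries, which are different exposures, gave 0.153 to 0.303 in either set. Alternatives were DESeq2 1.42.0, limma-voom (limma 3.58.1), no filter, the compared groups alone, the replicate block and each library left out.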

Additional observations from a re-analysis of the deposited data

Results flagged for a closer look

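Of 204 sets of 4 libraries (34 members in 6 groups), 23 held a library set far apart from the other 3 by Dixon's criterion, where chance gives about 1 in 20. Of these, 17 were the outlying replicates 3. In young asbestos Siglec F-high replicate 3 the low values were Hk1 at 4.64 CPM, Gpi1 at 197 CPM, Aldoa at 763 CPM, Gapdh at 176 CPM, Pfkfb4 at 84.0 CPM and G6pdx at 43.8 CPM. The high values of that library were Hk2 at 157 CPM, Pdk1 at 86.5 CPM, Taldo1 at 921 CPM and Tkt at 822 CPM. In old asbestos Siglec F-high replicate 3 all were low, with Gpi1 at 238 CPM, Aldoa at 675 CPM, Gapdh at 369.95 CPM, Ldha at 219 CPM, Slc16a3 at 57.2 CPM, Pgd at 365 CPM and Tkt at 426 CPM.

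The other 6 lay in libraries of good quality. At a rate of about 1 in 20 that many can arise by chance, so none of them is read as a result. Aldoc was high in young naive replicate 1 (74.5 CPM, the others 51.2 to 53.3). Slc16a1 was high in old naive replicate 2 (45.6 CPM, the others 28.6 to 29.6). In young Siglec F-low cells Slc2a1 was high in replicate 2 (68.8 CPM, the others 57.3 to 58.8) and Ldhb low in replicate 1 (2.43 CPM, the others 3.66 to 3.88). In old Siglec F-low cells Tpi1 was high in replicate 2 (140.3 CPM, the others 130.1 to 131.5) and Hif1a low in replicate 3 (116 CPM, the others 130.4 to 132.3).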

How the results depend on the processing

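Counts of members called are given here in the order age in naive Siglec F-high, asbestos Siglec F-high and asbestos Siglec F-low cells, asbestos in young and old animals, and sort in young and old animals. With 24 libraries they were 2, 2, 1, 3, 0, 5 and 4. Without both replicates 3 they were 10, 5, 7, 9, 4, 11 and 11, and with limma-voom quality weights 12, 6, 7, 13, 4, 13 and 13. Fitting only the groups compared gave 5, 0, 4, 0, 0, 1 and 7. For age in asbestos Siglec F-high cells the DESeq2 Wald test gave 4 and no filter gave 1. Leaving out 1 library at a time gave 1 to 4, 1 to 3, 0 to 2, 2 to 4, 0 to 0, 4 to 7 and 2 to 10, and 0 to 0 for both interactions. The 10 came with replicate 3 of young asbestos Siglec F-high left out, and the 2 with replicate 4 of old Siglec F-low left out. The 4 for age in naive cells and the 2 in Siglec F-low cells also came with that young library left out. The share of all genes called differed between fits too, being 2.03% with 24 and 8.03% with 22 libraries for age in naive cells. For limma-voom, DESeq2, no filter, the compared groups alone and single libraries left out that share is not given here. Those counts therefore do not show a change in the members themselves.

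With the replicate block and 24 libraries, 56 of 57 member fold changes kept their direction and side of the threshold, and Pkm for asbestos in young animals turned from 0.02 to −0.00801. With the block and 22 libraries the counts were 12, 6, 7, 8, 5, 14 and 12, while the shares of all genes called were 10.8, 9.88, 9.10, 6.52, 5.32, 17.9 and 14.3%, each above the share without it (8.03, 7.32, 7.21, 5.06, 4.12, 12.0 and 11.6%). Outside the sort comparisons it added Hk2 and Tkt for age in naive cells, G6pdx for age in asbestos Siglec F-high cells and Pgk1 for asbestos in old animals, and lost Hk3 for asbestos in young animals. For Tkt with age in asbestos Siglec F-high cells −0.03 became 0.274 with 22 libraries, 0.274 with the block added and 0.237 with limma-voom. Leaving out 1 library at a time gave Tkt −0.0915 to 0.132, the highest values without the young (0.132) and the old replicate 3 (0.108). For asbestos in young animals it gave Hk3 −0.0309 to 0.371, Pgam1 −0.0602 to 0.513, Eno1 −0.0155 to 0.335 and Pkm −0.0754 to 0.204. The lowest values of Hk3, Pgam1 and Eno1 came when replicate 1 of young asbestos Siglec F-high was dropped, and the highest of all 4 genes when its replicate 3 was. None of these was called with 24 libraries, and the cause was not tested.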
